A study of Mus musculus with 7 samples.

Results

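Potassium channel genes of kisspeptin cells in the anteroventral periventricular nucleus (AVPV) were described here in 7 libraries of ribosome-bound mouse RNA. The members are the protein-coding genes whose symbol begins with Kcn, which gave 94 genes of the 55384 listed, and 81 of them had enough counts to be tested among 18282 tested genes. They hold the pore-forming subunits of the voltage-gated, inward rectifier, two-pore and calcium- or sodium-activated channels (77 genes) and 17 auxiliary subunits. The AVPV is a preoptic cell group whose kisspeptin neurons act on gonadotropin-releasing hormone neurons.

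All libraries came from female mice on a C57BL/6 background with the genotype Kiss1Cre+/Rpl22HA+/+, in which the Kiss1 promoter drives Cre recombinase and cells that have expressed that Cre make an HA-tagged form of Rpl22, a protein of the ribosome. Each library was made from AVPV micropunches of 4 pooled brains by pulling down tagged ribosomes, so both groups share the Cre allele and the tag. Whether the share of RNA from tagged cells was alike in both groups was not tested. The 4 GDX libraries are labelled as gonadectomized without estradiol and the 3 E2 libraries as given estradiol. Dose, duration of treatment, age and whether the E2 females were also ovariectomized are not given in the sources used here. No library of unbound RNA and none from mice without Cre was analysed here, so RNA of neighbouring cells that came through the pull-down cannot be told apart from RNA of tagged cells by a direct comparison. Per the series design, the comparison is between estradiol-treated and ovariectomized females.

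A potassium channel lets potassium leave or enter the cell along its gradient and so sets the resting potential, shapes the action potential and limits repetitive firing. Voltage-gated (Kv) channels open on depolarization and repolarize the cell, inward rectifiers pass current near rest or after activation of G protein-coupled receptors, two-pore channels carry leak current, and calcium- or sodium-activated channels follow the ion load of firing. Auxiliary subunits change the gating, surface number or pharmacology of the pore subunits. AVPV kisspeptin neurons are known to fire tonically and in bursts, and their excitability is known to depend on estradiol.

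Library totals were 29207544 to 36213127 counts, and levels are CPM (depth-scaled counts) on library sizes scaled by TMM, a between-library scaling factor. At this depth 3 counts, the limit that a count of 0 allows, correspond to 0.0818 to 0.101 CPM, which covers counting error only. Kiss1 was 66.5 ± 31.7 CPM (SD, n = 4) in the GDX libraries and 415 ± 60.8 CPM (SD, n = 3) in E2, and the AVPV kisspeptin markers listed for this work (9 of 9 tested) summed to 3257 to 3799 CPM in GDX and 4561.7 to 4885.5 CPM in E2. The sum does not describe each marker: in the test given below, 4 of the 9 were higher in E2 and 1 was lower. Of all tested genes, 2.55% were higher and 1.33% lower. Markers of other cells were not absent. The 10 astrocyte markers summed to 3168, 1601, 1619 and 3732 CPM in GDX replicates 1 to 4 and 1269, 1375 and 1486 CPM in E2 replicates 1 to 3, and 5 mural cell markers to 296, 202, 153 and 658 CPM in GDX replicates 1 to 4 and 102, 141 and 133 CPM in E2 replicates 1 to 3. The 8 endothelial markers summed to 370.5, 235, 199.5 and 520.0 CPM in GDX replicates 1 to 4 and 116, 194 and 181 CPM in E2 replicates 1 to 3. GDX replicates 1 and 4 were highest in these 3 lists, and every E2 library lay below every GDX library. No marker of these lists was at 0 in any library, and none passed the test between groups, nor did any listed marker of oligodendrocytes, their precursors, microglia or ependymal cells. For each of the latter cell types the marker sums of the groups overlapped. The 9 oligodendrocyte markers summed to 5876, 3060.5, 2833 and 3127 CPM in GDX replicates 1 to 4. In E2 replicates 1 to 3 they summed to 3149, 2786 and 2627 CPM. Where nothing states that pools came from separate cohorts, p-values measure the spread between these pools. In RNA from pooled tissue, fewer cells of a type and less RNA per cell cannot be told apart.

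Levels were compared between genes only per length, as CPM per kilobase of merged exons. The member with the highest per-length level was Kcnj10, the inward rectifier known from astrocytes and other glia, at 34.2 ± 5.42 CPM per kilobase (SD over 7 libraries). Kcnj10 held 230.4, 162, 165 and 224 CPM in GDX replicates 1 to 4 and 169.7, 169.8 and 173 CPM in E2 replicates 1 to 3. The 2 highest values are those of GDX replicates 1 and 4, the libraries with the highest astrocyte marker sums. Every E2 library held more Kcnj10 than GDX replicates 2 and 3, and had a lower astrocyte marker sum than either. Whether glial RNA sets the level of Kcnj10 was not tested.

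Below Kcnj10, 9 members followed closely, among them, in falling order, Kcnip4, Kcnc4, Kcnc1, Kcnh2, Kcnj9, Kcnab2, Kcna6 and Kcnk1, with means from 21.9 down to 17.5 CPM per kilobase. The range of Kcnj10 over libraries did not overlap that of Kcnip4, whereas each later neighbour overlapped the next. The 10 highest genes made up 44.2% of the summed per-length level of all members. Kcnc4 and Kcnc1 encode Kv3 subunits, which allow short action potentials, and Kcna6 a Kv1 subunit. Kcnh2 encodes a subunit of the ERG family. Kcnj9 encodes a GIRK subunit, opened by G protein beta and gamma subunits, and Kcnk1 a two-pore subunit. Kcnip4 and Kcnab2 encode cytoplasmic partners of Kv4 and Kv1 channels.

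Above 10 CPM per kilobase stood 18 members, 48 lay between 1 and 10, and 28 lay below 1. Within each subfamily the levels spread widely. Among 15 inward rectifiers, Kcnj10 and Kcnj9 stood at 34.2 and 19.3 CPM per kilobase, Kcnj3 at 11.1 and Kcnj11, the pore of the ATP-sensitive channel, at 6.87, and Kcnj1 had no count in any library. Among the GIRK subunits Kcnj6 (0.698) and Kcnj5 (1.18) lay far below Kcnj9 and Kcnj3. Among 14 two-pore genes Kcnk1, Kcnk9, Kcnk2 and Kcnk3 stood at 17.5, 14.5, 14.2 and 10.9 CPM per kilobase. The calcium- or sodium-activated channels were led by the sodium-activated Kcnt1 (12), ahead of the BK channel gene Kcnma1 (4.22) and the SK channel gene Kcnn3 (3.04). The 13 members that were not tested did not pass the filter on low counts and reached at most 2.0 CPM in any library, which was Kcnj13 in GDX replicate 4. Kcnj13 shares 623 bp of exon with Gigyf2 on the opposite strand, so its counts are uncertain in unstranded libraries.

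**Figure D1:**
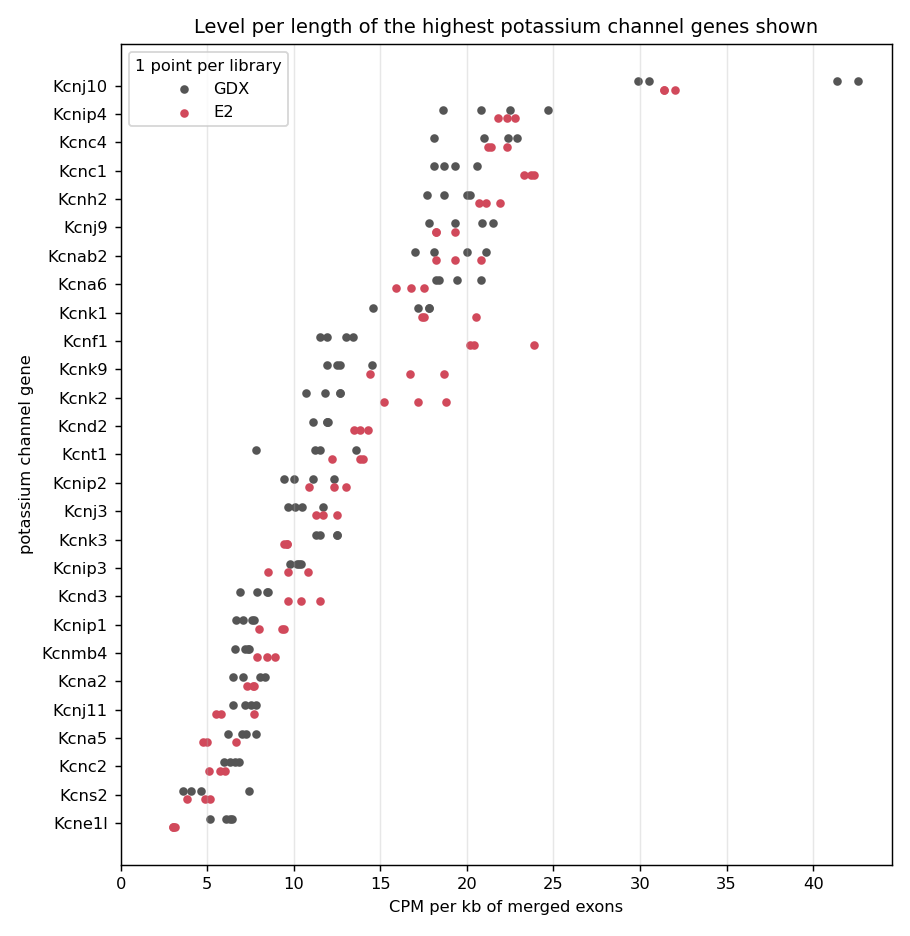
Per-length level (CPM per kilobase of merged exons, linear axis) of the potassium channel genes with the highest means among those reported here, 1 point per library, GDX in grey and E2 in red. Kcnj10 lies to the right of all others with GDX replicates 1 and 4 at its upper end, and the E2 points of Kcnf1, Kcnk2 and Kcnc1 lie to the right of all their GDX points.

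With estradiol, 5 potassium channel genes rose and 1 fell. The modifier subunit gene Kcnf1 rose 1.72-fold, the auxiliary gene Kcnab3 1.84-fold, the two-pore gene Kcnk2 1.43-fold, the A-type channel gene Kcnd3 1.32-fold and the Kv3 gene Kcnc1 1.23-fold. The auxiliary gene Kcne1l fell and was 1.96-fold higher in GDX. None of these changes reached a log2 fold change of 1 in size. Calls are edgeR quasi-likelihood tests with Benjamini-Hochberg adjustment over all 18282 tested genes at an adjusted p under 0.05, so 6 of 81 members (7.41%) were called against 3.88% of all genes tested. By direction, 5 rises stand beside 2.55% and 1 fall beside 1.33% of all tested genes. Levels of the groups did not overlap for 23 members (28.4%), 12 higher and 11 lower in E2, against 16.5% of all tested genes, 8.45% higher and 8.04% lower. An unadjusted p under 0.05 was reached by 25 members, 19 of them not called, against 16.8% of all tested genes. The median log2 fold change over the 81 members was −0.10, with 30 above and 51 below 0, against a median of 0.00 over all tested genes.

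**Figure D2:**
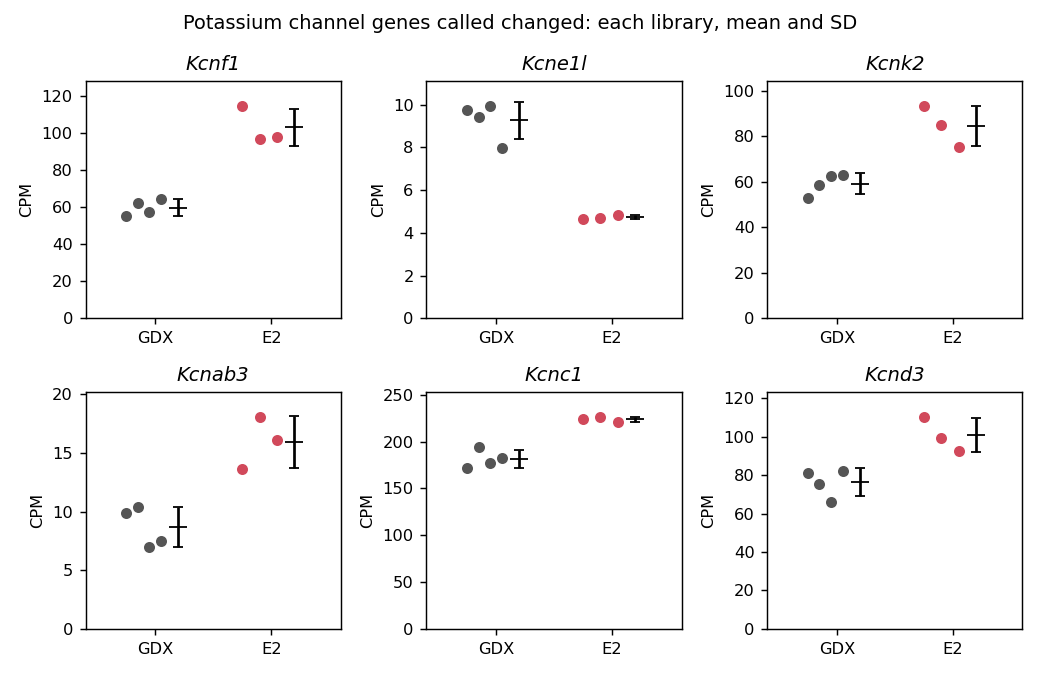
CPM of the 6 called potassium channel genes in each library (linear axes from 0), GDX in grey and E2 in red, with the mean and SD of each group as black bars. In every panel the 3 E2 points lie on 1 side of all 4 GDX points: above them for Kcnf1, Kcnk2, Kcnab3, Kcnc1 and Kcnd3, and below them for Kcne1l.

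Kcnf1 (ENSMUSG00000051726, chromosome 12, 17172100 to 17176888, GRCm38) encodes a Kv subunit that forms no channel on its own and modifies Kv2 channels when joined with them. It held 55, 62.4, 57.1 and 64.4 CPM in GDX replicates 1 to 4 and 114, 96.6 and 97.8 CPM in E2 replicates 1 to 3. Every E2 library lay above every GDX library, and the log2 fold change was 0.79 ± 0.09 (edgeR adjusted p = 0.000337). This call held in all 15 alternative settings tried, with adjusted p values from 1.78e-13 to 0.017. The Kv2 gene Kcnb2, at means of 16.8 (GDX) and 15.6 CPM (E2), did not pass, with a log2 fold change of −0.11 ± 0.14. Of the other modifier genes tested, 8 of 8 had a log2 fold change below 0 and none passed. Kcng2 (−0.0014 ± 0.27), Kcnv2 (−0.07 ± 0.97), Kcns2 (−0.09 ± 0.24) and Kcng1 (−0.19 ± 0.33) each lay within their standard error of 0. Kcns3 was at means of 4.16 (GDX) and 2.27 CPM (E2) (edgeR adjusted p = 0.103) and Kcns1 at means of 2.86 (GDX) and 1.48 CPM (E2) (0.154), both without overlap between the groups. Kcns3 was called with DESeq2.

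The bases just upstream of the start of the RefSeq transcript (build GRCm38.p6) are shown for Kcnf1, the rise with the lowest adjusted p, for Kcnc1, the called gene with the highest per-length level, and for Kcne1l, the fall. Sequences run 5′ to 3′ on the strand of the gene, and capitals mark matches to the motifs searched. For Kcne1l, bases that GENCODE places in its exon are left out.
Kcnf1, chr12:17176889-17177138, minus strand: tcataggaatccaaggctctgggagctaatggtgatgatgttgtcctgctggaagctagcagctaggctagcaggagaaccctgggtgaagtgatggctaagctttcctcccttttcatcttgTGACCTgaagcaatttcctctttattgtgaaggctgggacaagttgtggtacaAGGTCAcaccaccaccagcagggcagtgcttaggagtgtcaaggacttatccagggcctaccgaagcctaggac
Kcnc1, chr7:46396218-46396467, plus strand: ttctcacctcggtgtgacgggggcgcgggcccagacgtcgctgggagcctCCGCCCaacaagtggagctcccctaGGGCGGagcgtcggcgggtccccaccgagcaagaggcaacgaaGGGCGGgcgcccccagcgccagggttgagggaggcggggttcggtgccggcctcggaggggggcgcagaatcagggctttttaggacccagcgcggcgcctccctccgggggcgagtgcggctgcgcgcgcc
Kcne1l, chrX:142306295-142306448, minus strand: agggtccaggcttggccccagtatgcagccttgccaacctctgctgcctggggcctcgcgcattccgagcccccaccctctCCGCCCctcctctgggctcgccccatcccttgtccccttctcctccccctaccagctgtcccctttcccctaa
The motifs were the full estrogen response element (GGTCA and TGACC with 3 unspecified bases between), its single arm AGGTCA, the GC box GGGCGG, the AP-1 site TGANTCA and the cAMP response element TGACGTCA, searched on both strands in windows from 250 bases before to 50 after each start. The full element and the arm can overlap. Kcnf1 holds 2 arms, at 69 to 74 and 122 to 127 bases before the start. At least 2 arms are held by 1.81% of all 32851 windows and by 2.13% of the windows of members. Kcnc1 holds 3 GC boxes and Kcne1l 1, and 35.66% of all windows hold a GC box. The counts for these 3 genes cover only the bases printed, 250 for Kcnf1 and Kcnc1 and 154 for Kcne1l. The percentages are over whole windows, which are longer. In the 94 windows of 69 matched members, the full element was found in none (0.07% of all windows), the arm in 6.38% (16.26%), the GC box in 47.87% (35.66%), the AP-1 site in 4.26% (7.81%) and the cAMP response element in none (1.79%). A match describes letters and not a site of binding.

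Kcnc1 (ENSMUSG00000058975, chromosome 7, 46396497 to 46438704) held 171, 194, 177 and 183 CPM in GDX replicates 1 to 4 and 224, 226 and 221 CPM in E2 replicates 1 to 3. All E2 values were above all GDX values, and the log2 fold change was small, at 0.30 ± 0.07 (edgeR adjusted p = 0.0277). The call was lost in 8 of 15 alternative settings, among them leaving out GDX replicate 1 (adjusted p = 0.0998) or E2 replicate 1 (0.133), 2 (0.12) or 3 (0.093), and with the non-neuronal marker score as a covariate (0.393). This score is the mean log2 CPM of the astrocyte, oligodendrocyte, microglia and endothelial markers, without mural or ependymal ones. Kcnc4, the other Kv3 gene of high level, held 77, 82, 83.9 and 66.4 CPM in GDX replicates 1 to 4 and 77.8, 78.4 and 81.8 CPM in E2 replicates 1 to 3, and its groups overlapped, with a log2 fold change of 0.04 ± 0.09 that turned to −0.02 with unscaled library sizes. Kcnc2 did not pass either (−0.19 ± 0.09).

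The Kv4 subunits carry the fast A-type current that delays spikes and needs the cytoplasmic KChIP proteins (Kcnip genes) and the membrane proteins Dpp6 and Dpp10 for its normal gating. Kcnd3 (ENSMUSG00000040896, chromosome 3, 105452330 to 105674002) held 81.2, 75.4, 66.2 and 81.9 CPM in GDX replicates 1 to 4 and 110.1, 99.5 and 92.6 CPM in E2 replicates 1 to 3. The groups did not overlap, with a log2 fold change of 0.40 ± 0.10 (edgeR adjusted p = 0.0369). This call was lost in 7 of 15 settings, including without GDX replicate 1 (adjusted p = 0.0646) or 2 (0.0883), without E2 replicate 1 (0.209), 2 (0.115) or 3 (0.0638) and with the covariate (0.0987), where the log2 fold change was 0.52 ± 0.14. Kcnd2 held 61.3, 57.3, 61.3 and 61.6 CPM in GDX replicates 1 to 4 and 73.6, 71.1 and 69.4 CPM in E2 replicates 1 to 3. All its E2 values exceeded its GDX values, yet the log2 fold change of 0.24 ± 0.08 did not pass (edgeR adjusted p = 0.116), and Kcnd1 was at means of 11.1 (GDX) and 10.4 CPM (E2). Kcnip4, the KChIP gene of the highest level, held 75.5, 81.6, 89.6 and 67.5 CPM in GDX replicates 1 to 4 and 78.9, 82.8 and 80.7 CPM in E2 replicates 1 to 3. Its groups overlapped, and the log2 fold change of 0.04 ± 0.10 turned to −0.02 with unscaled library sizes. Kcnip1 was at means of 44.9 (GDX) and 55.3 CPM (E2), with no overlap and a log2 fold change of 0.30 ± 0.09 that did not pass (edgeR adjusted p = 0.119), and Kcnip2 (0.17 ± 0.11) and Kcnip3 (−0.08 ± 0.10) did not pass. Dpp6 rose, at 457, 489, 471 and 535 CPM in GDX replicates 1 to 4 and 671, 625 and 609 CPM in E2 replicates 1 to 3. Its log2 fold change was 0.38 ± 0.07 (edgeR adjusted p = 0.0113), whereas Dpp10 was 149 CPM (GDX) and 143 CPM (E2) and did not pass (adjusted p = 0.816).

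Kv1 channels open at low thresholds, sit at axons and bind the beta subunits of the Kcnab genes. Kcna6, the Kv1 gene of the highest per-length level, held 124, 109.6, 108 and 116 CPM in GDX replicates 1 to 4 and 104, 94.2 and 100.1 CPM in E2 replicates 1 to 3. All E2 values lay below all GDX values, but the log2 fold change of −0.20 ± 0.08 did not pass (edgeR adjusted p = 0.205) and was −0.11 with the covariate. None of the 7 tested Kv1 genes passed, where 3.88% of all tested genes did, and their median log2 fold change was −0.20. Kcna5 was at means of 20.2 (GDX) and 15.7 CPM (E2) (−0.37 ± 0.15), and Kcna2 was at means of 89.2 (GDX) and 89.8 CPM (E2) (0.01 ± 0.09). The beta subunit gene Kcnab3 (ENSMUSG00000018470, chromosome 11, 69326258 to 69333042) held 9.9, 10.4, 6.98 and 7.46 CPM in GDX replicates 1 to 4 and 13.6, 18.1 and 16.1 CPM in E2 replicates 1 to 3. The groups did not overlap, and it rose by a log2 fold change of 0.88 ± 0.18 (edgeR adjusted p = 0.0175). The call was lost without E2 replicate 2 (adjusted p = 0.112) or 3 (0.081) and with the covariate (0.0923), where the log2 fold change was 1.02 ± 0.26. Kcnab2, which is higher in level, held 111, 118, 101 and 95 CPM in GDX replicates 1 to 4 and 102, 116 and 108 CPM in E2 replicates 1 to 3. Its groups overlapped, and the log2 fold change of 0.03 ± 0.09 turned to −0.03 with unscaled library sizes. The groups of Kcnab1 also overlapped (−0.06 ± 0.13).

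The EAG family includes the ERG channels, whose current slows firing. Kcnh2 held 90.7, 97.7, 96.8 and 85.8 CPM in GDX replicates 1 to 4 and 102, 106 and 100.3 CPM in E2 replicates 1 to 3. The E2 values were all higher, by little, and the log2 fold change of 0.15 ± 0.08 did not pass (edgeR adjusted p = 0.355). None of the 8 tested genes of this family passed, where 3.88% of all tested genes did. The groups did not overlap for 4 of the 8, beside 16.5% of all tested genes. Kcnh6 was at means of 5.21 (GDX) and 7.89 CPM (E2) (0.60 ± 0.24), whereas Kcnh7 was at means of 20.6 (GDX) and 16 CPM (E2) (−0.37 ± 0.12). Kcnh7 shares 696 bp of exon with Gca (7.38 to 11.3 CPM) on the opposite strand. The groups of Kcnh1 overlapped, at means of 36.7 (GDX) and 29.8 CPM (E2) (−0.30 ± 0.11), and its log2 fold change was −0.08 with the covariate and −0.17 without GDX replicates 1 and 4, its 2 highest libraries. The covariate gave 1.05 for Kcnh6 and 0.06 for Kcnh2, which was at 0.08 without GDX replicates 1 and 4. Kcnh3 held 10.3, 8.49, 8.71 and 8.88 CPM in GDX replicates 1 to 4 and 2.06, 6.62 and 3.83 CPM in E2 replicates 1 to 3. Its 3 E2 libraries spread widely and all lay below the GDX libraries, with a log2 fold change of −1.13 ± 0.32 (edgeR adjusted p = 0.0927), and it was called with DESeq2 (adjusted p = 0.00829), limma-voom (0.0138), no low-count filter (0.000143) and without E2 replicate 2 (0.0147).

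Kv7 subunits, those of Kcnq3 and Kcnq5 among them, form the M-current, which muscarinic receptors close. None of the 5 tested Kv7 genes passed, where 3.88% of all tested genes did. Kcnq3 was at means of 54.5 (GDX) and 43 CPM (E2) and Kcnq5 at means of 19.2 (GDX) and 24.5 CPM (E2), both without overlap and in opposite directions, with log2 fold changes of −0.34 ± 0.10 and 0.35 ± 0.13 that did not pass (edgeR adjusted p = 0.0787 and 0.203). Kcnq3 was called with DESeq2, limma-voom, no low-count filter or unscaled library sizes and without GDX replicate 3. GDX replicates 1 and 4 held the 2 highest values of Kcnq3 among the 7 libraries, as of Kcnj10, and its log2 fold change was −0.18 with the covariate and −0.23 without both libraries. That of Kcnq5 was 0.55 with the covariate.

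Inward rectifiers stood beside the astrocyte, mural and endothelial marker sums given above, which were lower in every E2 library, and the part of those cells in these values was not tested. None of the 12 tested inward rectifiers passed, where 3.88% of all tested genes did. Of the 12, 11 had a log2 fold change below 0, with a median of −0.22. Among all 81 tested members, 51 lay below 0. Kcnj4 (−0.07 ± 0.36), Kcnj2 (−0.13 ± 0.27) and Kcnj14 (−0.26 ± 0.28) each lay within their standard error of 0. Kcnj10 was at −0.19 ± 0.13 (edgeR adjusted p = 0.512), and without GDX replicates 1 and 4 its log2 fold change turned to 0.06. Kcnj16, whose product joins that of Kcnj10, was at means of 16.2 (GDX) and 10.1 CPM (E2) with no overlap (−0.69 ± 0.20, edgeR adjusted p = 0.0903), and it was called with DESeq2, limma-voom or no low-count filter. GDX replicates 1 and 4 were its 2 highest libraries, and its log2 fold change was −0.43 with the covariate (adjusted p = 0.721) and −0.47 without both of them (0.313). Kcnj8, known from mural cells, was at means of 3.15 (GDX) and 1.99 CPM (E2) (−0.66 ± 0.35). The GIRK subunit gene Kcnj9 held 82.9, 89.6, 92.2 and 76.4 CPM in GDX replicates 1 to 4 and 78.2, 78 and 82.8 CPM in E2 replicates 1 to 3. Its groups overlapped (−0.10 ± 0.08), Kcnj3 was at means of 54.6 (GDX) and 61.6 CPM (E2) (0.17 ± 0.09), the 1 inward rectifier above 0, and Kcnj5 was at means of 6.31 (GDX) and 4.48 CPM (E2) without overlap (−0.49 ± 0.23, or −0.31 without E2 replicate 2). Kcnj11 was at means of 26.7 (GDX) and 23.3 CPM (E2) (−0.20 ± 0.13).

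Of 10 tested two-pore genes, 1 rose and none fell, beside 2.55% higher and 1.33% lower of all tested genes. Kcnk2 (ENSMUSG00000037624, chromosome 1, 189207930 to 189402273), which encodes a TREK channel opened by stretch and lipids, held 52.7, 58.5, 62.6 and 62.8 CPM in GDX replicates 1 to 4 and 93.1, 84.8 and 75.4 CPM in E2 replicates 1 to 3. The groups did not overlap, and it rose by a log2 fold change of 0.51 ± 0.10 (edgeR adjusted p = 0.0102), but did not pass when E2 replicate 1 (adjusted p = 0.0789) or 2 (0.0538) was left out or the covariate was added (0.295). It shares 604 bp of exon with A430027H14Rik (3.94 to 6.80 CPM) on the opposite strand. The TASK genes Kcnk9 and Kcnk3, whose channels close in acid, differed in opposite directions without passing. Kcnk9 held 154, 157, 146 and 179 CPM in GDX replicates 1 to 4 and 231, 178 and 206 CPM in E2 replicates 1 to 3. E2 replicate 2 lay just below GDX replicate 4, and the log2 fold change was 0.37 ± 0.10 (edgeR adjusted p = 0.0659). Kcnk3 held 45.6, 49.7, 49.8 and 44.9 CPM in GDX replicates 1 to 4 and 38.2, 37.4 and 38.1 CPM in E2 replicates 1 to 3. All its E2 values were lower (−0.32 ± 0.09, edgeR adjusted p = 0.0616), and it shares 229 bp of exon with Gm9899 (9.02 to 12.6 CPM) on the opposite strand. Kcnk9 was called in 7 of 15 settings and Kcnk3 in 5, DESeq2 and limma-voom among both. Kcnk13 was at means of 10.6 (GDX) and 17 CPM (E2) without overlap (0.67 ± 0.18, edgeR adjusted p = 0.0632) and was called with DESeq2, limma-voom or no low-count filter. Kcnk1 held 39.7, 32.6, 39.8 and 38.4 CPM in GDX replicates 1 to 4 and 39.1, 45.9 and 39 CPM in E2 replicates 1 to 3, and its groups overlapped (0.14 ± 0.10).

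Calcium- and sodium-activated channels gave no call among 8 tested genes, where 3.88% of all tested genes were called. Kcnt1 held 109, 129, 107 and 74.2 CPM in GDX replicates 1 to 4 and 131, 116 and 133 CPM in E2 replicates 1 to 3. GDX replicate 4 was far below the other libraries, and the groups overlapped (0.27 ± 0.16, edgeR adjusted p = 0.446). Without that library the log2 fold change was 0.14, and with the covariate 0.10. Kcnma1 was at means of 68.1 (GDX) and 76.5 CPM (E2) (0.17 ± 0.08), and its beta subunit gene Kcnmb4 was at means of 23.8 (GDX) and 27.9 CPM (E2) without overlap (0.23 ± 0.10, edgeR adjusted p = 0.265). Kcnn3 was at means of 34.7 (GDX) and 27.7 CPM (E2), also without overlap (−0.33 ± 0.11, edgeR adjusted p = 0.157). GDX replicates 1 and 4 were its 2 highest libraries, and the log2 fold change was −0.13 with the covariate and −0.18 without both of them. The smooth muscle beta subunit gene Kcnmb1 held 4.72, 2.35, 2.25 and 5.86 CPM in GDX replicates 1 to 4 and 0.678, 3.1 and 1.85 CPM in E2 replicates 1 to 3. GDX replicates 1 and 4 were highest, as for the mural marker sum, though the mural marker Acta2 was higher in GDX replicate 2 (49.7 CPM) than 1 (42.5 CPM). Kcne4, also highest in GDX replicate 4 at 2.51 CPM, was at means of 1.39 (GDX) and 0.497 CPM (E2) (−1.48 ± 0.66). Its log2 fold change was −0.70 with the covariate, which holds no mural markers. The part of mural RNA in these values was not tested.

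Kcne1l (ENSMUSG00000090122, chromosome X, 142304752 to 142306294) encodes a single-pass membrane subunit of the KCNE family, members of which bind Kv subunits and alter their current. It held 9.73, 9.43, 9.92 and 7.99 CPM in GDX replicates 1 to 4 and 4.65, 4.71 and 4.82 CPM in E2 replicates 1 to 3. The 3 E2 libraries were nearly equal and all below the GDX libraries, with a log2 fold change of −0.97 ± 0.18 (edgeR adjusted p = 0.0088). The call was lost without E2 replicate 1 (adjusted p = 0.0553) and with the covariate (0.0688), where the log2 fold changes were −0.96 and −1.03. Of 17 auxiliary genes, 13 were tested, and apart from Kcnab3 and Kcne1l none passed. Their called share was 15.4%, beside 3.88% of all tested genes.

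**Figure D3:**
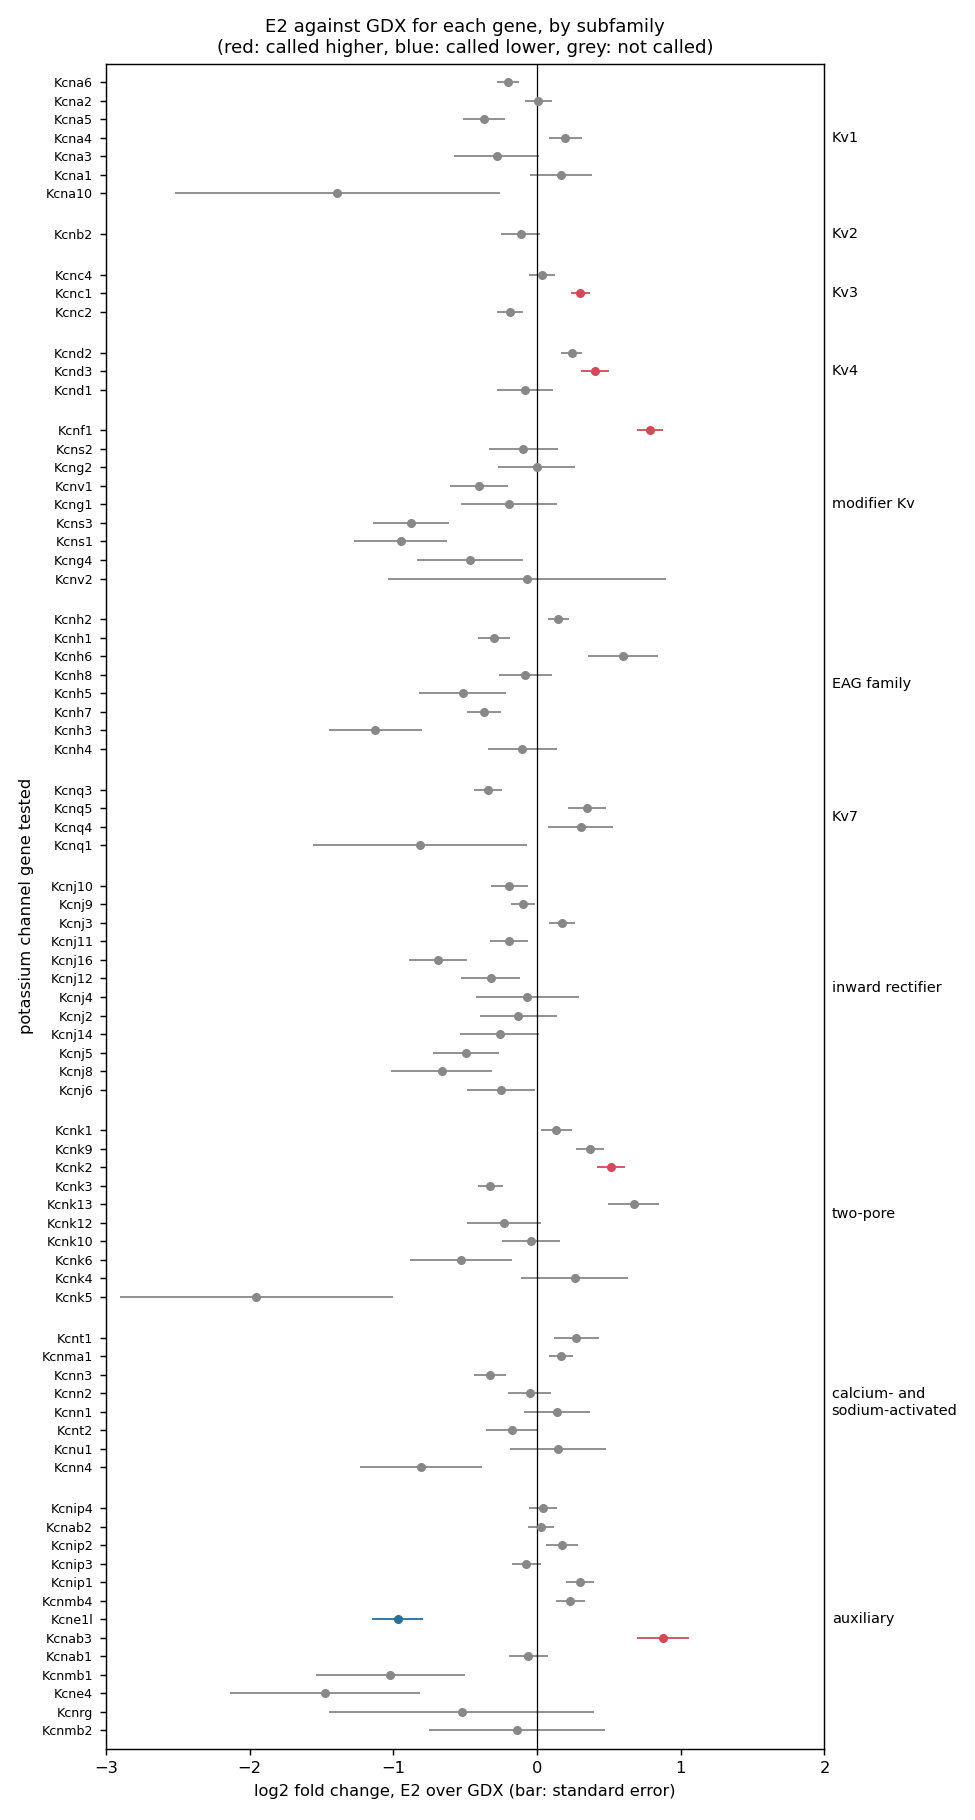
Log2 fold change (E2 over GDX) with its standard error for the tested potassium channel genes reported here, grouped by subfamily and ordered by per-length level within it, with called rises in red, the called fall in blue and the rest in grey. Among inward rectifiers 11 of 12 points lie left of 0, some by less than their standard error. Among modifier genes Kcnf1 alone lies right of it.

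The make-up of the whole set was compared by the share of each class in the summed per-length level of all 94 members. Voltage-gated pore subunits held 44.3% ± 0.854 (SD, n = 4) in GDX and 45.0% ± 0.695 (SD, n = 3) in E2, auxiliary subunits 18.9% ± 0.966 and 18.9% ± 0.95, and calcium- or sodium-activated channels 5.10% ± 0.523 and 5.34% ± 0.112. Inward rectifiers held 19.53%, 17.29%, 17.8% and 19.93% in GDX replicates 1 to 4 and 15.77%, 15.75% and 16.9% in E2 replicates 1 to 3. The groups did not overlap, and the difference of −2.5 percentage points had a two-sided exact permutation p of 0.0571, or 0.214 adjusted over 5 classes, where the smallest p the 35 splits allow is 0.0286. Without Kcnj10 and Kcnj16, a choice made after the data were seen, the inward rectifier share was 11.1% in GDX and 9.89% in E2 (exact permutation p = 0.0286, adjusted p = 0.143). Two-pore channels held 13.1% ± 0.629 in GDX and 14.6% ± 0.755 in E2, a difference of 1.5 percentage points (exact permutation p = 0.0857, adjusted p = 0.214). With 35 splits and 5 classes, a single class at the smallest p reaches an adjusted p of 0.143, so these tests cannot show that the shares did not differ.

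**Figure D4:**
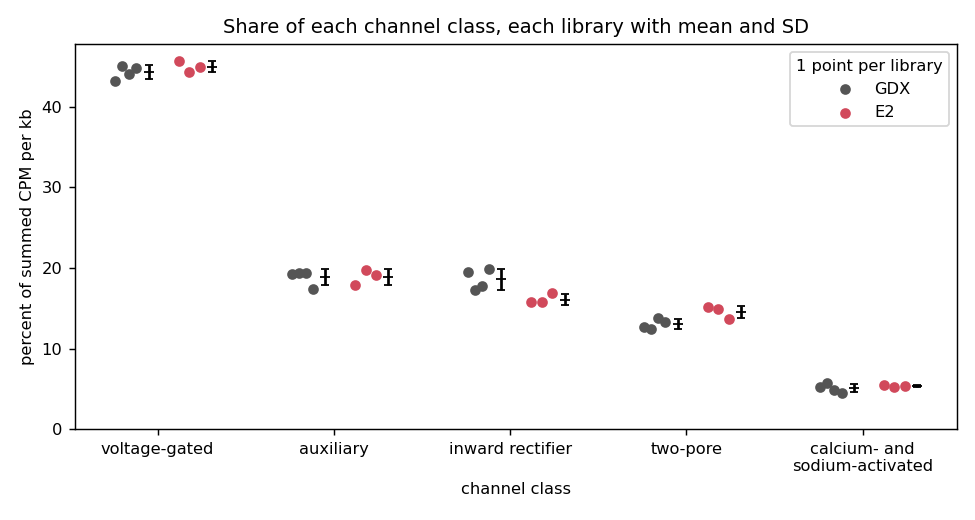
Share of each channel class in the summed per-length level of all 94 potassium channel genes (percent, axis from 0), 1 point per library, GDX in grey and E2 in red, with the mean and SD as black bars. The E2 points of the inward rectifiers lie below all GDX points, while the points of the other classes overlap.

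Genes outside the Kcn names that build or regulate these channels were counted from lists. Of 34 tested partners, 3 rose and none fell, beside 2.55% higher and 1.33% lower of all 18282 tested genes, with a median log2 fold change of 0.06. Among these were Cntnap2, which holds Kv1 channels beside the node of Ranvier (from 207 to 302 CPM, log2 fold change 0.55 ± 0.08), and Dpp6. Amigo1, a Kv2 partner, did not pass (−0.19 ± 0.07). Of 15 tested genes of potassium pumps and pacemaker channels, 4 rose and 1 fell, beside the same 2.55% and 1.33%. Among these, the pacemaker gene Hcn4 rose from 22 to 36.6 CPM. The pump subunit gene Atp1b3 rose from 142 to 197 CPM, and the pump regulator Fxyd6 fell from 406 to 299 CPM. Of 15 tested G protein beta and gamma genes, 1 rose, where 2.55% of all tested genes did. It was Gng4, from 119.6 to 158 CPM (0.40 ± 0.08), while Gnb1 and Gnb2 did not pass (0.07 ± 0.06 and 0.02 ± 0.09).

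The number of called members moved with single libraries and with the method. Leaving out 1 library gave 2 to 6 rises and 0 to 2 falls, with the fewest calls, 2 rises, without E2 replicate 1. DESeq2 gave 7 rises and 6 falls among members, beside 675 and 725 among all 18282 tested genes. Limma-voom gave 7 and 5, beside 710 and 399, where edgeR gave 467 and 243 over all genes. With the non-neuronal score as a covariate 1 member was called, Kcnf1, beside 222 rises and 95 falls among all genes. Of the 5 members no longer called, Kcnab3, Kcnd3 and Kcne1l had log2 fold changes of at least the same size as without it, and those of Kcnc1 and Kcnk2 were smaller, at 0.25 ± 0.10 and 0.38 ± 0.13. This score (5.38 to 6.11 in GDX, 5.09 to 5.35 in E2) lay higher in GDX without overlap, so the score and the treatment cannot be fully told apart. Without GDX replicates 1 and 4 together, 5 members rose and 2 fell, beside 505 rises and 264 falls among 18472 tested genes. With unscaled library sizes 3 members rose and 3 fell, beside 385 and 352 among 18282. Of the members, 15 of 81 (18.5%) had GDX replicates 1 and 4 as their 2 highest libraries, against 12.1% of all tested genes.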

How the data were processed

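Ribosome-bound RNA of 4 GDX and 3 E2 pools was sequenced from unstranded, polyadenylated libraries, per the labels' protocols. The deposited values are expected counts per gene, and 33.1% of the non-zero values have decimals. The submitters' processing notes name Trimmomatic 0.38, STAR 2.6.0a, RSEM 1.3.0 and mm10, without roles or order. Expected counts were rounded and tested with edgeR 4.0.16 (R 4.3.3) by quasi-likelihood with TMM scaling after filterByExpr (minimum count 10, minimum total 15), on all 7 libraries with treatment as the only term, and p-values were adjusted by Benjamini-Hochberg over 18282 genes. Errors of log2 fold changes are standard errors. CPM used unrounded counts. Gene types, positions and merged exon lengths came from GENCODE vM21 (GRCm38), which matched 55203 of 55384 gene identifiers. Class shares were tested by two-sided exact permutation over 35 splits. DESeq2 1.42.0, limma 3.58.1 (voom), a replicate block, a covariate of non-neuronal markers, other filters, scalings and lengths, and each library left out were alternatives. The code was tested on simulated data with known changes, in which the share of false calls was above the nominal rate, so calls near the threshold are less certain than their adjusted p.

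The members and lists were chosen with earlier results of these data known. Values are given in every library for called members, for the 10 highest per length and for the highest of each subfamily, and in a clause for members with an unadjusted p under 0.05 or without overlap between groups. From other lists, up to 4 called genes and the first 2 that did not pass are named. Some genes these rules select are not reported here. Further members named with a value were chosen after their values were seen. Of the members, 25 share exon bases with another listed gene, 24 of them on the opposite strand only, whose reads unstranded counts cannot separate. Kcnab3 shares 147 bp with Kcnab3os, Kcnd3 165 bp with Kcnd3os and Kcna6 2355 bp with Gm26673, each partner below 1 CPM in every library. Partners above 1 CPM are those of Kcnk2, Kcnk3 and Kcnh7, given beside their values, Kcnmb4os2 (693 bp with Kcnmb4, 1.29 to 2.36 CPM) and 5730480H06Rik (168 bp with Kcnip4, 6.48 to 8.61 CPM), among others. Promoter sequences came from RefSeq, with an entry for 69 of 94 members.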

Additional observations from a re-analysis of the deposited data

Results flagged for a closer look

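In groups of 4 libraries, the lowest or highest value was set against the range of its group by Dixon's criterion, which chance exceeds in about 1 in 20 groups. Of 40 results examined, 4 exceeded it, all through a single low GDX library. Kcnd2 was lowest in GDX replicate 2 at 57.3 CPM, with a gap of 0.929 of the range. Kcnq5 was lowest in GDX replicate 3 at 15.2 CPM (0.846), and Kcns3 was lowest in GDX replicate 2 at 3.32 CPM (0.902). The share of auxiliary subunits was lowest in GDX replicate 4 at 17.4% (0.914).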

How the results depend on the processing

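Counts of called members, 5 higher and 1 lower, became 7 higher and 4 lower of 93 without the low-count filter. They were 7 and 6 with DESeq2, 7 and 5 with limma-voom and 1 and 0 with the covariate. Without GDX replicates 1 and 4 they were 5 and 2, and with unscaled library sizes 3 and 3. Leaving out 1 library gave 2 to 6 higher and 0 to 2 lower. Over all genes, 467 higher and 243 lower became 722 and 887 of 33537 without the filter. They were 675 and 725 with DESeq2, 710 and 399 with limma-voom and 222 and 95 with the covariate. Without GDX replicates 1 and 4 they were 505 and 264, and with unscaled library sizes 385 and 352. Leaving out 1 library gave 268 to 591 higher and 96 to 428 lower.

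Signs turned for genes near 0, for which leaving out 1 library reached 0.0816 for Kcnab2, 0.0806 for Kcnc4 and 0.112 for Kcnip4. Kcnab2 was at −0.0266 with limma-voom, −0.0200 with the block, −0.0209 without GDX replicate 4, −0.0230 without E2 replicate 2, −0.0158 without GDX replicates 1 and 4 and −0.0322 unscaled. Kcnc4 was at −0.0285 with the block, −0.0772 with the covariate, −0.0293 without GDX replicate 4, −0.0689 without GDX replicates 1 and 4 and −0.0235 unscaled. Kcnip4 was at −0.0222, −0.121, −0.0256, −0.0884 and −0.0196 in the same 5 settings. Kcnj10 was at 0.168 with the covariate and 0.0599 without GDX replicates 1 and 4. The voltage-gated share difference was −0.433 percentage points without length correction and −0.0283 without Kcnj10 and Kcnj16. The auxiliary share difference ranged from −0.43 to 0.566 over single libraries left out, and was −0.485 without GDX replicates 1 and 4 and −0.274 without Kcnj10 and Kcnj16. Without length correction, 6 of the 10 highest members were shared. The cause of these shifts was not tested.

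Correlations of same-numbered deviations from the group means were −0.0205, −0.038 and −0.0555. No pairing by replicate number was seen in them, but they cannot show how the pools were collected or processed. With the replicate block, 5 members rose and 1 fell, with Kcnk9 in place of Kcnc1, beside 421 rises and 191 falls among all tested genes. Leaving out GDX replicates 1 and 4, leaving sizes unscaled and leaving out Kcnj10 and Kcnj16 were chosen after seeing the data. Members near 3 counts, 0.0818 to 0.101 CPM, are limited by depth.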
